A study of Mus musculus with 42 samples.

Results

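The genes described here make up the coat of the lipid droplet and the lipase cascade that empties it. They are 10 genes chosen by name, of the 54532 in the deposited read count table: the perilipins Plin1, Plin2, Plin3, Plin4 and Plin5, the CIDE genes Cideb and Cidec, and the lipase genes Pnpla2, Lipe and Mgll. All 10 were found in the table, each as 1 gene. The study collected livers of female C57BL/6 mice (C57BL/6NHsd in the methods) that were 3 weeks old at the start and ate either AIN93G, the standard diet, or a high-fat diet (HFD) with more of its energy as soybean oil for 3 weeks, and were killed without fasting. Time is given as zeitgeber time (ZT, hours after lights on, with lights off at ZT 12). Each diet was sequenced every 4 h from ZT 0 to ZT 24 with 3 mice each, which gives 42 poly(A) RNA libraries of 14592481 to 21368409 counted reads (median 16646464). The paper describes a collection over more than a day, with more mice per time point than the 3 sequenced. The labels do not give the day of each library. Diet and time were the group differences in the labels.

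All libraries carry the tissue label liver, but they fell into 2 kinds by Alb, which encodes the albumin that hepatocytes secrete. In 32 libraries Alb stood at 66434 to 111995 counts-per-million of counted reads (CPM), over the 10000 CPM limit used here, and these are called liver libraries. In the other 10 it stood at 18.7 to 81.0 CPM. Those 10 were all 3 AIN93G libraries of ZT 16, all 3 of ZT 20, and replicates 1 and 2 of ZT 24 on each diet. The summed level of 8 hepatocyte markers (Alb, Ttr, Apoa2, Fgb, Tat, Cps1, Hnf4a and F2) was 90809 to 136160 CPM in the 32 and 26.5 to 108 CPM in the 10. Alb, which set the split, is part of that sum, so the sum is no separate support for it. The sum of 8 adipocyte markers (Adipoq, Cfd, Retn, Lep, Pparg, Acvr1c, Adig and Slc7a10) was 0.908 to 29.7 CPM in the 32 and 5543 to 14155 CPM in the 10. No gene of either list was at 0 in all libraries of either kind. The 10 are called adipocyte-rich below, and their values go against the tissue label. They also held fibroblast markers (sum 3773 to 9736 CPM) and, unevenly, brown adipocyte (58.0 to 1241 CPM), skeletal muscle (15.7 to 13086 CPM), mammary epithelium (16.0 to 446 CPM) and lymphocyte markers (0.553 to 479 CPM). In bulk RNA, fewer cells of a type and less RNA per cell cannot be told apart.

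A lipid droplet is a core of triacylglycerol and sterol ester under a single layer of phospholipid, and the perilipins and CIDE proteins sit on that layer. Perilipins control which lipases reach the core. CIDE proteins act where droplets touch or, for Cideb, also in the lipidation of the lipoproteins that hepatocytes secrete. Lipolysis then runs in 3 steps: Pnpla2 (ATGL) takes the first fatty acid from triacylglycerol, Lipe (hormone-sensitive lipase) takes one from diacylglycerol, and Mgll takes the last from monoacylglycerol. White adipocytes store fat in 1 large droplet coated by Plin1 and Cidec. Hepatocytes hold many small ones coated mainly by Plin2, with Plin3 and Plin5, and rely on Cideb.

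The 7 coat genes lie on 5 chromosomes of the mm10 build. Plin1 lies at chr7:79720218-79732903, Plin2 at chr4:86648386-86670060, Cideb at chr14:55754050-55758458 and Cidec at chr6:113424634-113435760, all on the minus strand. Plin3 (chr17:56277476-56292873), Plin4 (chr17:56100591-56109803) and Plin5 (chr17:56111601-56117596) share chromosome 17 and the minus strand, and the start of Plin4 is 1797 bases from the end of Plin5. The lipase genes are Lipe (chr7:25379527-25398710, minus strand), Pnpla2 (chr7:141455198-141460743, plus strand) and Mgll (chr6:88724412-88828360, plus strand). Cideb shares 1451 bases with Nop9 and Lipe 19184 bases, its whole span, with 4732471J01Rik, both on the opposite strand. Mgll overlaps Gm26588 on the opposite strand (1449 bases) and Gm43937, Gm44005, Gm43999 and Gm44001, and Plin4 shares 17 bases with Hdgfl2. Whether the counting used strand is not given in the sources used here, so reads of those stretches cannot be assigned with certainty. 4732471J01Rik had mean levels of 1.03 CPM in liver libraries and 8.69 CPM in adipocyte-rich libraries, and Gm26588 16.0 and 4.31 CPM. Nop9 itself had mean levels of 21.6 CPM in liver libraries and 20.1 CPM in adipocyte-rich libraries.

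The RefSeq promoter windows (GRCm38.p6, 250 bases before the start and 50 after, 14 windows for the 10 genes, 4 of which have 2 starts) were searched on both strands. The letters were AGGTCA, the half-site of many nuclear receptors, its direct repeat AGGTCANAGGTCA (DR1, the form PPARs bind), the E-box CACGTG and the D-box TTATGTAA of circadian factors. The half-site lay in 3 of the 14 windows, against 16.3% of 32851 mouse promoter windows of the same length. The E-box lay in 3, in Plin2, Lipe and Mgll, against 7.15% of all. The direct repeat and the D-box lay in none, against 0.0396% and 0.938% of all; the half-site is part of the direct repeat, so the first 2 searches overlap. The 5 windows shown belong to the coat genes that changed places between the library kinds (Cideb and Cidec), to the leading hepatic perilipin (Plin2) and to the neighbours Plin4 and Plin5. They are 5′ to 3′ on the minus strand, with the half-site and the E-box in capitals. In Plin2 the half-site reads on the opposite strand at bases 33 to 38 and the E-box lies at bases 247 to 252; in Plin5 the half-site lies at bases 81 to 86. Plin2 is chr4:86670010-86670309, Plin4 chr17:56109733-56110032, Plin5 (start 1) chr17:56117499-56117798, Cideb chr14:55758375-55758674 and Cidec (start 1) chr6:113435711-113436010.
Plin2: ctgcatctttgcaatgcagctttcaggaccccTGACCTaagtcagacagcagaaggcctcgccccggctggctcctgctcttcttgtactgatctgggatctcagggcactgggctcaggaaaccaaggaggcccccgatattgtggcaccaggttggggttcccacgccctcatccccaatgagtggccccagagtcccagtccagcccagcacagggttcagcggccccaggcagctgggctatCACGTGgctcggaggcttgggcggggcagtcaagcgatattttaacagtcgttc
Plin4: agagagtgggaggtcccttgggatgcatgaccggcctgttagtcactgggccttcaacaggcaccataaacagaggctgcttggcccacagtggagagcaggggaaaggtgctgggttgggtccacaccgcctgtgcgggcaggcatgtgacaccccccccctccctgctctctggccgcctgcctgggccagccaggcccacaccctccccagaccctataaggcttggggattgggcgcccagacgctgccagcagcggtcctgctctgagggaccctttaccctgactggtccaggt
Plin5: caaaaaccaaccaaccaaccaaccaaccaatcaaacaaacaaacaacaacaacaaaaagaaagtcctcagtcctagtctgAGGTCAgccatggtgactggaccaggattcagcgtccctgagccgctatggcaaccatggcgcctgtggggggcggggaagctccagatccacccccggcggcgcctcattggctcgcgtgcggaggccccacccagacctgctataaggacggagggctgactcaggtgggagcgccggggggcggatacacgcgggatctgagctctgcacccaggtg
Cideb: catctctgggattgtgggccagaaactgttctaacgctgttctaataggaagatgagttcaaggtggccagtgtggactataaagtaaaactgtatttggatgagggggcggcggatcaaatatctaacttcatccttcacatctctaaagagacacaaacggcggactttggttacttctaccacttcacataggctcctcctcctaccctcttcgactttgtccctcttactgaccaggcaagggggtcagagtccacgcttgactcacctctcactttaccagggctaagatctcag
Cidec: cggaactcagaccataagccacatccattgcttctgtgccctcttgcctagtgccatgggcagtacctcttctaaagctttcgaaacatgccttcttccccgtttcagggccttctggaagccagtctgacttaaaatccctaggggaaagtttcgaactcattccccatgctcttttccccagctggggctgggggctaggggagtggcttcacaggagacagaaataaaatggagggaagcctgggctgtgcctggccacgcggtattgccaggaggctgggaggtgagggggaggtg

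In liver libraries, Plin2 led the coat and Mgll the lipases, whereas in adipocyte-rich libraries Cidec, Pnpla2 and Plin1 stood at the top. Levels of different genes are compared per length, as CPM per kilobase of the deposited gene length. Over the 32 liver libraries the mean ± SD was 128 ± 45.5 CPM per kb for Plin2, 51.5 ± 12.1 for Mgll, 29.5 ± 3.2 for Cideb, 21.3 ± 8.4 for Plin5, 16.9 ± 5.2 for Pnpla2 and 9.75 ± 1.9 for Plin3. The next were Plin4 at 1.99 ± 1.79, Lipe at 1.82 ± 0.40, Cidec at 1.77 ± 0.89 and Plin1 at 0.042 ± 0.16 CPM per kb. Plin2 exceeded Mgll in 31 of the 32 and Mgll exceeded Cideb in all 32, but Plin4, Lipe and Cidec lay within each other's spread, with Plin4 above Lipe in 12 libraries and Lipe above Cidec in 23.

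The order in the 10 adipocyte-rich libraries was another one. Cidec stood at 837 ± 157 CPM per kb, Pnpla2 at 602 ± 94, Plin1 at 334 ± 51 and Plin4 at 310 ± 121, followed by Mgll (211 ± 51), Lipe (205 ± 49) and Plin2 (196 ± 97). Plin3 (20.0 ± 3.3) and Plin5 (19.3 ± 10.8) were far lower and Cideb stood at 0.21 ± 0.24. Cidec was above Pnpla2 and Pnpla2 above Plin1 in all 10, whereas Plin1 was above Plin4 in 7, Mgll above Lipe in 6 and Plin3 above Plin5 in 5, so those neighbours did not differ beyond their spread.

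**Figure D1:**
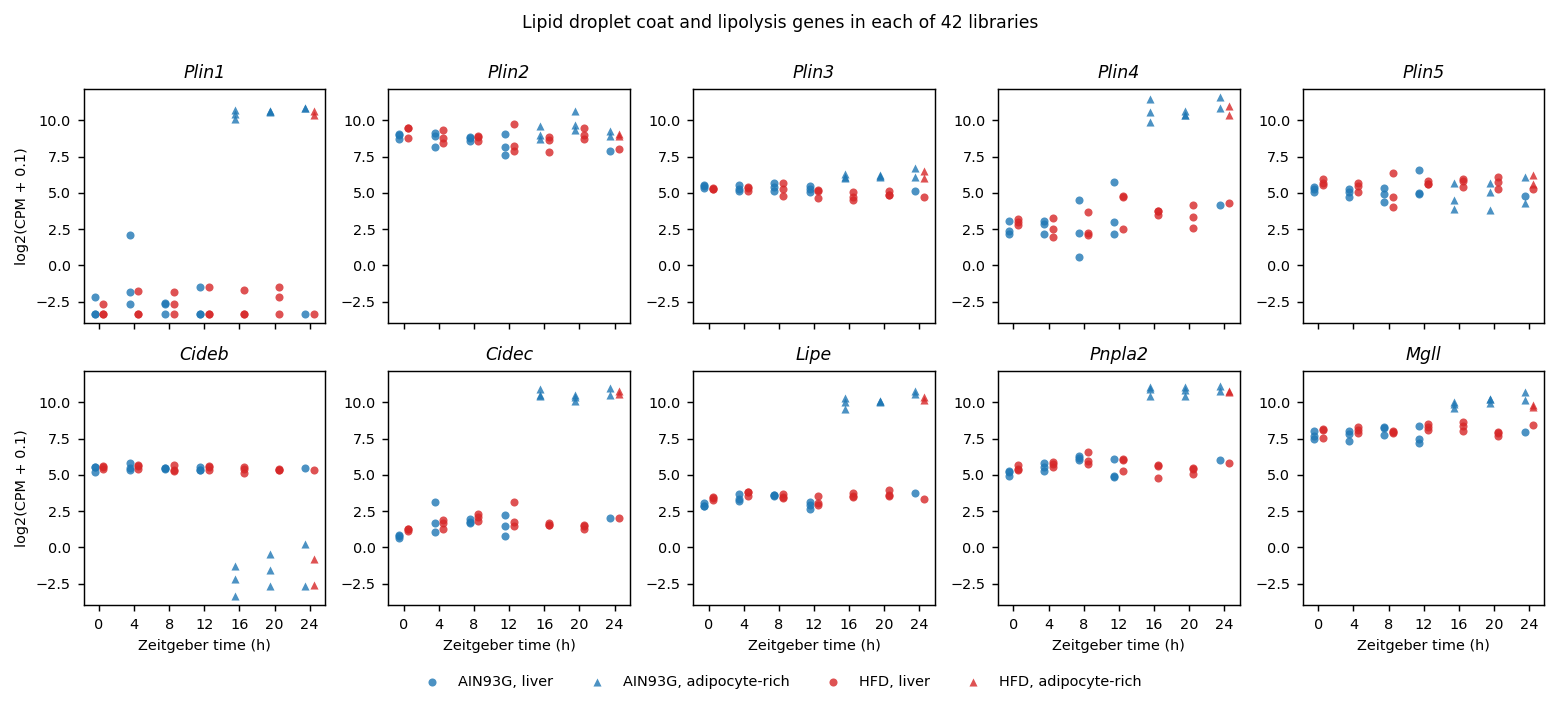
Level of each of the 10 genes, as log2(CPM + 0.1), against the labelled zeitgeber time in hours, with 1 point per library (blue AIN93G, red HFD; circles liver libraries, triangles adipocyte-rich libraries). Plin1, Plin4, Cidec, Lipe and Pnpla2 triangles lie far above all circles and those of Mgll and Plin3 just above them, Cideb triangles lie below all circles, and Plin2 and Plin5 triangles mix with the circles.

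**Figure D2:**
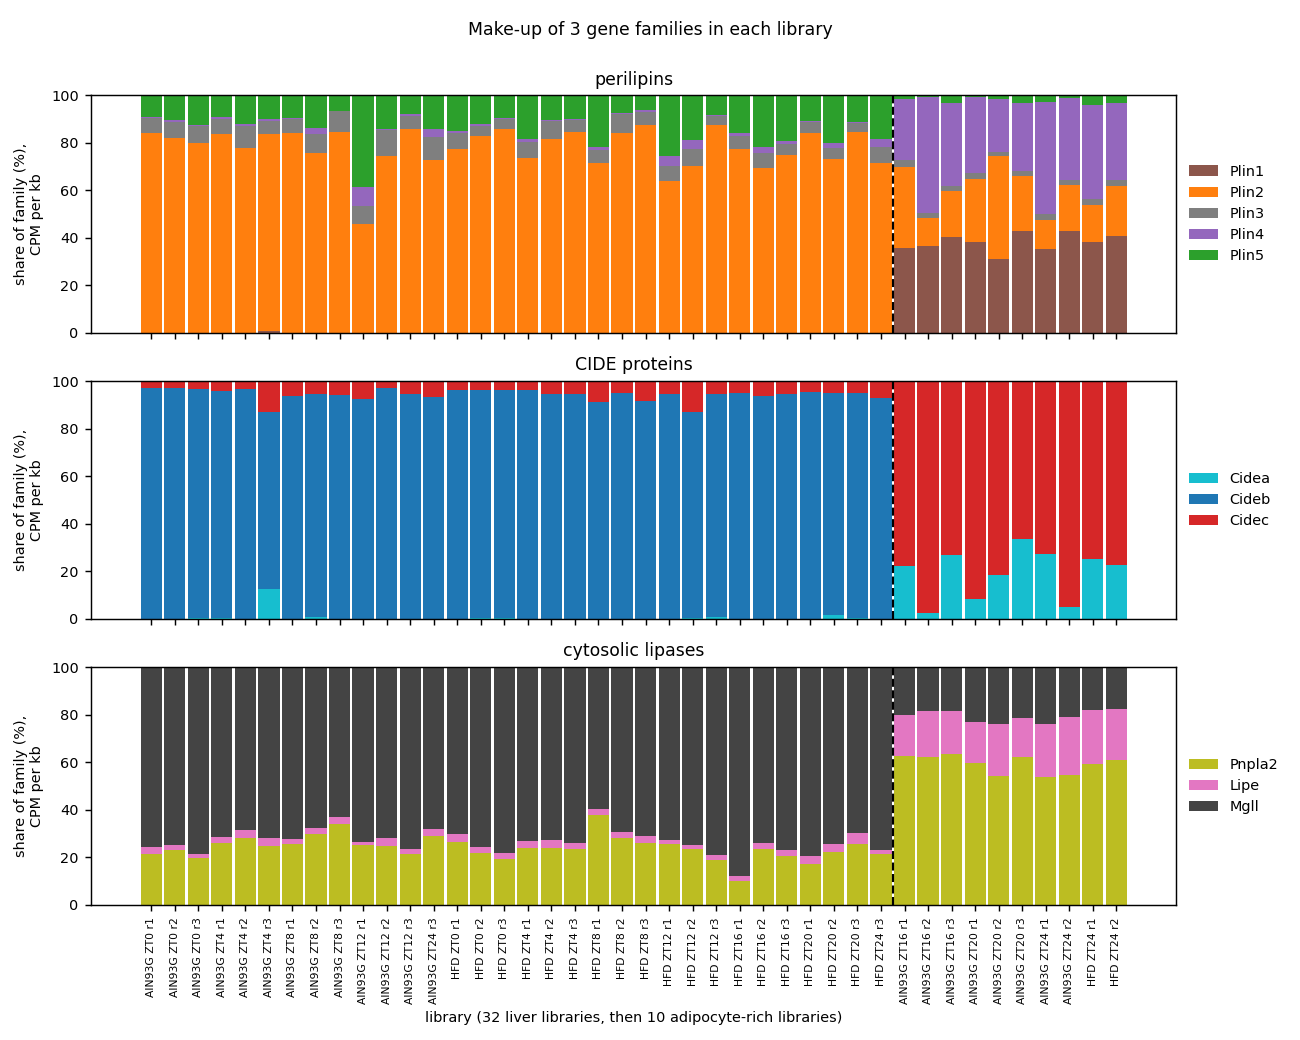
Share of each gene in the summed CPM per kb of the perilipins (top), the CIDE genes (middle) and the lipase genes (bottom), as stacked bars that reach 100% for each library, with the 32 liver libraries first and the 10 adipocyte-rich libraries after them. Plin2 and Cideb fill most of the liver bars, whereas Plin1, Plin4 and Cidec fill most of the adipocyte-rich bars.

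The make-up of each family is plain from the shares plotted by library. In liver libraries Plin2 took a mean of 78.1% of the perilipin sum (45.9 to 87.7%), Plin5 14.01%, Plin3 6.40%, Plin4 1.46% and Plin1 0.026%. In adipocyte-rich libraries Plin1 took 38.3%, Plin4 34.6%, Plin2 22.6%, Plin3 2.30% and Plin5 2.25%. Among CIDE genes Cideb took 93.9% (74.5 to 97.2%) in liver libraries, whereas Cidec took 80.8% (66.6 to 97.5%) and Cidea 19.1% (2.51 to 33.4%) in adipocyte-rich libraries. Among the lipase genes Mgll took 73.3%, Pnpla2 24.0% and Lipe 2.67% in liver libraries, against 20.6%, 59.3% and 20.1% in adipocyte-rich libraries. The summed levels were 161 and 880 CPM per kb for perilipins, 31.5 and 1038 for CIDE genes, and 70.2 and 1018 for lipase genes, in liver and adipocyte-rich libraries. Mgll, which also hydrolyses the endocannabinoid 2-arachidonoylglycerol in many tissues, was the highest of these 3 lipase genes in liver libraries and not in adipocyte-rich libraries.

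The 2 kinds of library were compared along the study's own labels, AIN93G at ZT 16 and 20 (6 adipocyte-rich libraries) against AIN93G at ZT 0 to 12 (12 liver libraries). Time and tissue content cannot be told apart in that comparison. Plin1, which gates lipolysis in adipocytes and is phosphorylated by protein kinase A, stood at a lowest of 1078, a median of 1547 and a highest of 1718 CPM in the 6, and at 0, 0.0607 and 4.22 CPM in the 12. It had no count in 17 of all 32 liver libraries and at most 3 counts in 28. The pooled level was 1490 CPM against 0.416 CPM (82 counts), a ratio of 3579 (95% interval 2883 to 4500, counting error only).

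Of those 82 counts, 70 came from AIN93G ZT 4 replicate 3. Without that library the ratio was 22397 (12822 to 43347). The same library held the highest adipocyte marker sum among liver libraries, 29.7 CPM with the next at 13.2 CPM, and also 24.2 CPM of Ucp1, the brown adipocyte uncoupling protein, and 5.31 CPM of Cidea. Their part in the values of that library was not tested.

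Cidec, which promotes the exchange of lipid between touching droplets, stood at 1113, 1416 and 1960 CPM (lowest, median, highest) in the 6 and at 1.51, 2.89 and 8.63 CPM in the 12. The highest of the 12 was again AIN93G ZT 4 replicate 3. The ratio of pooled levels was 457 (423 to 495), and 543 (497 to 595) without that library. Cideb ran the other way, at 0, 0.176 and 0.631 CPM in the 6 and at 36.5, 44.3 and 56.7 CPM in the 12, with no overlap. Its pooled liver level was 192 times that of the 6 libraries (129 to 300.02, from 24 counts in the 6), and 5 of the 10 adipocyte-rich libraries had at most 3 counts of it. The Cideb level in the 12 liver libraries thus stood at 44.1 ± 5.05 CPM with the adipocyte-rich level near the counting limit.

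Plin4, the perilipin of adipocytes and skeletal muscle, stood at 958, 1440 and 2844 CPM in the 6 and at 1.37, 6.04 and 54.4 CPM in the 12, and its log2 fold change was 6.68 ± 0.50 (SE). Pnpla2 stood at 1361, 1893 and 2116 CPM in the 6 and at 29.1, 42.2 and 78.4 CPM in the 12, a log2 fold change of 4.54 ± 0.19. Lipe stood at 746, 1073 and 1277 CPM against 6.19, 8.91 and 12.7 CPM, a log2 fold change of 6.14 ± 0.12. In each of these the lowest of the 6 lay above the highest of the 12. Mgll differed by far less, 767, 1033 and 1224 CPM against 150, 223 and 333 CPM, a log2 fold change of 1.44 ± 0.15 (adjusted p = 1.1e-09, edgeR quasi-likelihood test).

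Plin2, Plin3 and Plin5 did not follow the others. Plin2 stood at 422, 712 and 1584 CPM in the 6 and at 192, 453 and 574 CPM in the 12, and the groups overlapped (log2 fold change 0.14 ± 0.24, adjusted p = 0.616). Plin3, the widely made perilipin that moves between cytosol and droplets, stood at 64.6, 70.1 and 79.8 CPM against 33.4, 41.6 and 52.3 CPM, with a log2 fold change of 0.10 ± 0.11 (adjusted p = 0.432) once libraries were scaled by TMM. Plin5, which ties droplets to mitochondria in oxidative tissue, stood at 14.1, 28.2 and 51.4 CPM against 20.6, 33.3 and 96.5 CPM, a log2 fold change of -0.98 ± 0.33 (adjusted p = 0.00892), and the groups overlapped in CPM. These 3 depend on the scaling. With libraries scaled by their totals and no TMM factor, the all-gene median was 0.72 on the log2 scale, Plin2 (0.86, adjusted p = 0.00189) and Plin3 (0.80, adjusted p = 6.4e-08) were called higher, and Plin5 (-0.26, adjusted p = 0.437) was not called.

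Plin1 and Cideb reached the count minimum only through the group in which they were high, so they had to differ and are described by the ratios above without a call. Of the other 8 genes, 6 passed the test, with Plin4, Cidec, Lipe, Pnpla2 and Mgll higher and Plin5 lower. Of all 13137 genes tested, 75.2% passed too, 38.2% higher and 37% lower. Scaled by totals, 8976 genes were higher and 2433 lower, against 5022 and 4862 with TMM.

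Of 40 other genes of the pathway, listed by hand, 31 reached the count minimum in both groups, and 27 of these passed, 19 higher and 8 lower. Beside them, 75.2% of all 13137 genes passed, 38.2% higher and 37% lower. Scaled by totals, 28 of the 31 passed, 24 higher and 4 lower, where most passing genes of the whole table were higher too, as given above. Of the 8 lower genes, Rab18 (-0.48 with TMM, 0.23 by totals) and Abhd6 (-0.41 and 0.31) then passed as higher, and Faf2 (-0.69 and 0.014) and Acsl3 (-0.80 and -0.086) did not pass. All 9 such regulators of lipolysis were higher, among them the fatty acid carrier Fabp4 (9.01 on the log2 scale), the beta3-adrenergic receptor Adrb3 (4.61), the ATGL co-activator Abhd5 (1.57) and the ATGL inhibitor G0s2 (1.77). Of 8 genes of droplet assembly and triacylglycerol synthesis, 6 were higher, including Dgat1 (2.72). Of 8 other droplet proteins, 2 were higher, with Pnpla3 at 3.55, and 5 lower with TMM, with the droplet dehydrogenase gene Hsd17b11 at -2.23. Of 6 other intracellular lipases, 2 were higher and 3 lower with TMM, among them the lysosomal Lipa (-2.60). The remaining 9, Adrb1, Aqp7, Hcar1, Prkar2b, Mogat1, Fitm1, Cidea, Hsd17b13 and Ces3a, reached the minimum in 1 group only.

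At ZT 16 and 20 the HFD libraries were liver libraries and the AIN93G libraries were adipocyte-rich, so diet and tissue content cannot be told apart there. The 6 AIN93G libraries are those of the comparison just given. The 6 HFD libraries held 5.87, 12.3 and 17.9 CPM of Plin4 (lowest, median, highest), 2.29, 2.79 and 3.10 CPM of Cidec and 35.2, 40.8 and 47.3 CPM of Cideb. They held 39.2, 55.2 and 69.3 CPM of Plin5, against 14.1, 28.2 and 51.4 CPM in AIN93G. Plin1 and Cideb again reached the count minimum through 1 group only. As HFD minus AIN93G, 7 of the other 8 genes passed the test, Plin5 higher and Plin3, Plin4, Cidec, Lipe, Pnpla2 and Mgll lower, beside 72.5% of all genes, 35.6% higher and 36.9% lower. The values were -6.37 ± 0.67 for Plin4, -8.33 ± 0.35 for Cidec, -5.67 ± 0.16 for Lipe, -4.75 ± 0.25 for Pnpla2, -1.18 ± 0.19 for Mgll and 1.501 ± 0.37 for Plin5 on the log2 scale. The pooled Cideb level on HFD was 179.9 times that of the AIN93G libraries (121 to 281, counting error only). Plin3 was lower (-0.57 ± 0.13, adjusted p = 0.00021). Plin2 did not pass (-0.04 ± 0.28, 95% interval -0.62 to 0.54), but it did with scaling by totals (-0.78, adjusted p = 0.0147), where the all-gene median was -0.74 and 2396 genes were higher and 8771 lower.

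Within liver libraries the diet could be compared at ZT 0, 4, 8 and 12, with 3 mice per diet and time point. None of the 9 genes with enough counts passed the test. Plin2, the coat protein whose level follows stored lipid in hepatocytes, stood at 192, 453 and 574 CPM (lowest, median, highest of 12) in AIN93G-fed mice and at 237, 445 and 847 CPM in HFD-fed mice. The mean difference over the 4 time points, HFD minus AIN93G, was 0.22 ± 0.20 on the log2 scale (95% interval -0.19 to 0.64, adjusted p = 0.814). The 2 ranges overlapped, and the highest HFD values, among them 847 CPM, lay above all AIN93G values.

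Lipe was nearest to a difference. It stood at 6.19, 8.91 and 12.7 CPM in AIN93G-fed mice and at 7.59, 10.9 and 14.2 CPM in HFD-fed mice. The 12.7 CPM, like the highest Cidec value on AIN93G (8.63 CPM), came from AIN93G ZT 4 replicate 3. That library had the highest adipocyte marker sum among liver libraries (29.7 CPM), and the part of those markers in the diet values was not tested. The Lipe difference was 0.24 ± 0.09 (95% interval 0.04 to 0.43) with an unadjusted p of 0.0184 and an adjusted p of 0.487. At ZT 0 its 3 values were 8.4, 7.0 and 7.1 CPM on AIN93G and 10.3, 10.9 and 9.4 CPM on HFD, with no overlap (0.42 ± 0.19, adjusted p = 1). At ZT 8 they were 12.0, 11.6 and 12.3 CPM on AIN93G and 12.6, 10.8 and 10.9 CPM on HFD. The other differences were 0.32 ± 0.24 for Plin5 (95% interval -0.17 to 0.81), 0.23 ± 0.13 for Mgll, 0.22 ± 0.15 for Pnpla2, 0.20 ± 0.22 for Cidec, 0.03 ± 0.08 for Cideb (-0.13 to 0.18), -0.16 ± 0.09 for Plin3 and -0.07 ± 0.43 for Plin4 (-0.96 to 0.82). Cideb was thus bounded most narrowly and Plin4 hardly at all. With 1 library left out, the difference ran from 0.056 to 0.54 for Plin5, 0.018 to 0.41 for Cidec and 0.041 to 0.34 for Plin2. It ran from 0.17 to 0.36 for Mgll, 0.14 to 0.37 for Pnpla2, 0.18 to 0.27 for Lipe and -0.21 to -0.11 for Plin3.

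**Figure D3:**
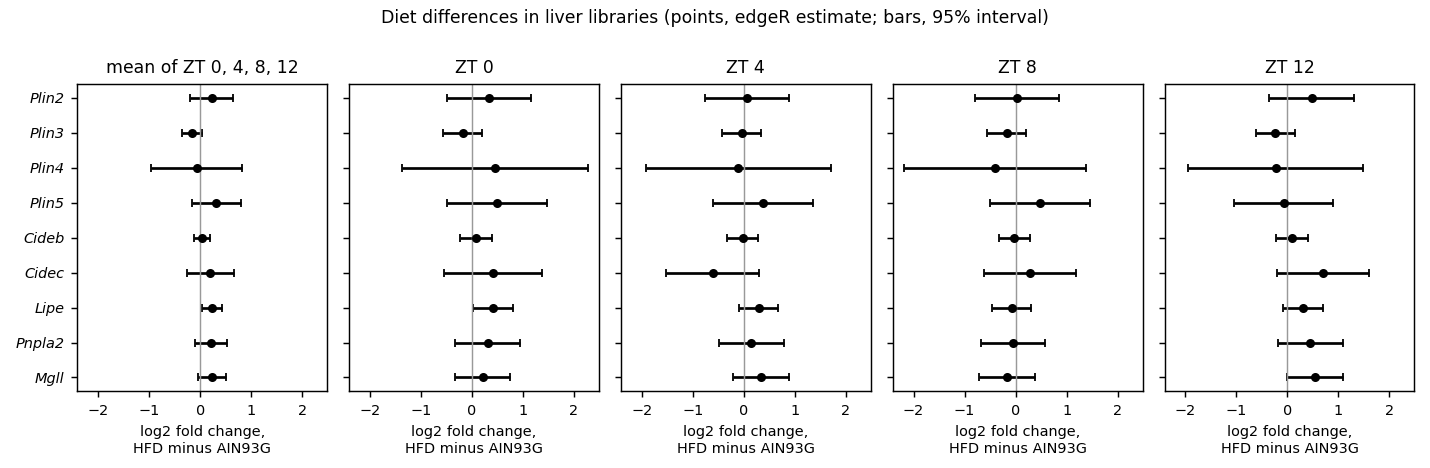
Log2 fold change, HFD minus AIN93G in liver libraries, of the 9 genes that could be tested, with points for the mean over ZT 0, 4, 8 and 12 and for each of these time points and bars for the 95% interval. Only the mean and ZT 0 intervals of Lipe leave out 0, and no value passed the adjusted test.

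Of the 9 genes with enough counts for the test (Plin1 fell under the mean count of 25), 7 had a positive mean difference, with a median of 0.22 beside -0.0019 over all 12023 genes. This mean includes ZT 12, where by their clock genes 1 of 3 AIN93G and 2 of 3 HFD libraries were most like ZT 8 and the rest most like ZT 0. The 2 clock states were thus unequally spread over the diets there, and their part in the diet values was not tested. Without ZT 12 the difference was 0.21 for Lipe, 0.14 for Plin2, 0.13 for Mgll and 0.03 for Cidec, and none of the 9 passed. Of 34 testable pathway genes none passed and 16 were positive, with a median of -0.02. Few genes passed anywhere: 0.0499% over the 4 time points (6 genes, and 976 at an unadjusted p under 0.05), 0% at ZT 0, 0% at ZT 4, 0.0166% at ZT 8 (2 genes) and 0% at ZT 12. For the 3 zero counts edgeR had 479, 289 and 860 genes at an unadjusted p under 0.05, and DESeq2 called 13, 0 and 3. No gene passed the test of a diet difference that varied with time (0%, with 712 unadjusted, and 5 by DESeq2). None of the 9 was called by DESeq2 in any of these diet comparisons. Leaving out AIN93G ZT 12 replicate 1 brought Mgll at ZT 12 past the threshold. Mgll stood at 333 CPM in that library, which was most like ZT 8, and at 150 and 176 CPM in AIN93G replicates 2 and 3, most like ZT 0. On HFD it stood at 319 and 370 CPM in replicates 1 and 2, most like ZT 8, and at 275 CPM in replicate 3, most like ZT 0.

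The 3 libraries per diet at ZT 12 did not share 1 clock state, which bears on every time profile and diet comparison in liver that uses ZT 12. Compared over 12 clock genes with the HFD means of the other time points, AIN93G replicate 1 and HFD replicates 1 and 2 were most like ZT 8, with Arntl (Bmal1) at 1.0, 1.7 and 0.9 CPM and Dbp at 91.4, 59.0 and 76.0 CPM. AIN93G replicates 2 and 3 and HFD replicate 3 were most like ZT 0, with Arntl at 43.3, 46.9 and 38.4 CPM. The labels give a light phase to AIN93G replicate 2 and HFD replicate 3 and a dark phase to the rest of ZT 12. The liver libraries at ZT 24, 1 per diet, were also most like ZT 8 and not ZT 0. In the ZT 12 libraries like ZT 8, in the order given, Plin4 stood at 54.4, 26.5 and 26.9 CPM, Pnpla2 at 67.0, 66.6 and 68.6 CPM and Plin2 at 192, 237 and 306 CPM. In those like ZT 0, Plin4 stood at 4.31, 8.06 and 5.73 CPM, Pnpla2 at 30.5, 29.1 and 38.7 CPM and Plin2 at 284, 541 and 847 CPM. These are descriptions of libraries that the data, not the labels, set apart, and they were not compared by a test.

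Over ZT 0 to 12 in AIN93G liver libraries, the 3 lipase genes had their highest mean level at ZT 8. Pnpla2 stood at 30.2, 37.5 and 37.9 CPM at ZT 0, at 56.0, 38.9 and 45.6 CPM at ZT 4, at 66.2, 78.4 and 70.6 CPM at ZT 8 and at 67.0, 30.5 and 29.1 CPM at ZT 12. The ZT 8 values lay above all ZT 0 and ZT 4 values, and ZT 12 was split. Lipe stood at 8.4, 7.0 and 7.1 CPM at ZT 0 and 12.0, 11.6 and 12.3 CPM at ZT 8, again with no overlap. Mgll overlapped, at 180 to 258 CPM at ZT 0 and 220 to 318 CPM at ZT 8 (0.44 ± 0.26 on the log2 scale, adjusted p = 0.459, edgeR). On HFD the highest mean was at ZT 8 for Pnpla2 only, at ZT 4 for Lipe and at ZT 16 for Mgll.

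The ZT 8 minus ZT 0 difference was 0.73 ± 0.19 for Lipe (adjusted p = 0.0507) and 1.09 ± 0.31 for Pnpla2 (adjusted p = 0.0780), so neither passed, and 1.11 ± 0.46 for Cidec (adjusted p = 0.229). DESeq2 called both, Lipe (adjusted p = 0.0140) and Pnpla2 (adjusted p = 0.0169). Lipe also passed with RLE size factors and when any of 9 single libraries was left out, all but 1 of them from ZT 4 or ZT 12. Pnpla2 passed without AIN93G ZT 12 replicate 1 or without HFD ZT 12 replicate 3 (lowest adjusted p = 0.0120). Of all genes 1.3% passed in edgeR (156 genes), and 14 to 385 genes did with 1 library left out. DESeq2 called more genes in all than edgeR, with the count in the closing section. In the test over the 4 AIN93G time points none of the 9 tested genes passed, beside 0.175% of all genes (21). Without ZT 12 Lipe (adjusted p = 0.0439) and Pnpla2 (adjusted p = 0.0154) passed, where many more genes passed in all, with the count in the closing section. Pnpla2 also passed without AIN93G ZT 12 replicate 1 alone (adjusted p = 0.0154, edgeR), where 245 genes passed in all. Lipe did by DESeq2 (adjusted p = 0.0178), which also called more genes in all.

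Plin2, Plin3, Plin5 and Cideb did not pass between those times (-0.12 ± 0.40, 0.05 ± 0.19, -0.24 ± 0.47 and 0.08 ± 0.15), with 95% intervals of -0.95 to 0.70 for Plin2 and -1.22 to 0.74 for Plin5. Plin4 had 5.0, 8.1 and 4.4 CPM at ZT 0 and 4.5, 23.2 and 1.4 CPM at ZT 8 (0.77 ± 0.87). The high ZT 8 value was replicate 2, whose sum of 4 skeletal muscle markers was 1105 CPM, with the next liver library at 86.9 CPM, and without that library the difference was -0.87. The part of those markers in its Plin4 level was not tested.

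**Figure D4:**
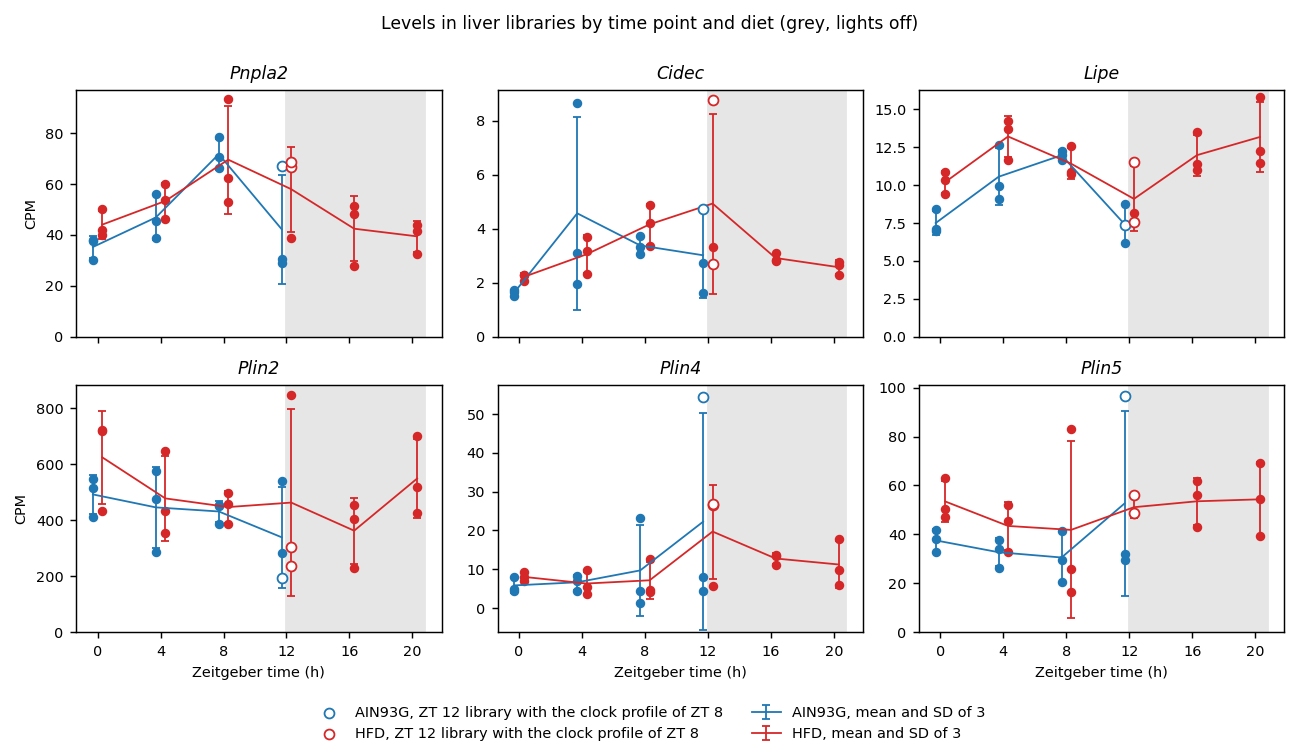
Level in CPM of Pnpla2, Cidec, Lipe, Plin2, Plin4 and Plin5 in liver libraries against labelled zeitgeber time in hours (blue AIN93G, red HFD; points are mice, lines and bars the mean ± SD of 3, open circles the ZT 12 libraries whose clock genes were most like ZT 8). Pnpla2 stands highest at ZT 8 on both diets, and the open circles at ZT 12 lie apart from the filled ones for Pnpla2 and Plin4.

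In HFD-fed mice, whose livers were sampled from ZT 0 to ZT 20, Pnpla2 and Cidec followed a 24 h cosine. Pnpla2 stood at 41.99, 50.3 and 39.9 CPM at ZT 0, at 53.7, 46.2 and 60.1 at ZT 4, at 93.5, 62.3 and 53.0 at ZT 8, at 66.6, 68.6 and 38.7 at ZT 12, at 27.7, 48.1 and 51.5 at ZT 16, and at 32.7, 41.6 and 44.03 at ZT 20. The fitted amplitude was 0.41 on the log2 scale with a peak at ZT 8.65 (adjusted p = 0.0365). Its highest library was at ZT 8 and its lowest at ZT 16, and neighbouring times overlapped.

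Cidec stood at 2.0, 2.3 and 2.3 CPM at ZT 0, at 2.3, 3.2 and 3.7 at ZT 4, at 4.9, 3.4 and 4.2 at ZT 8, at 2.7, 8.8 and 3.3 at ZT 12, at 3.1, 2.8 and 2.8 at ZT 16 and at 2.3, 2.7 and 2.8 at ZT 20. The amplitude was 0.58 with a peak at ZT 10.6 (adjusted p = 0.0337). All 3 ZT 8 values lay above all ZT 0 values, and 1 library of ZT 12 was the highest of the 18. The sum of 8 adipocyte markers was at most 13.2 CPM in these 18 libraries, and 7.75 CPM in the one with the highest Cidec.

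Both calls rest on few libraries, and Cidec had 31 to 156 counts in each. Leaving out 1 of the 18 at a time, Cidec lost the call in 7 cases (adjusted p 0.0159 to 0.101) and Pnpla2 in 9 (0.0078 to 0.103). For Cidec these were HFD ZT 0 replicates 1, 2 and 3, ZT 8 replicate 1, ZT 12 replicate 2 and ZT 20 replicates 1 and 2. For Pnpla2 they were ZT 0 replicates 1 and 3, ZT 4 replicate 3, ZT 8 replicates 1 and 2, ZT 12 replicates 1 and 2 and ZT 20 replicates 1 and 2. With the HFD library of ZT 24 added, the adjusted p was 0.127 for Cidec and 0.0932 for Pnpla2, and it was 0.0645 for Cidec without ZT 12 and 0.0577 for Pnpla2 without a count minimum.

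The cosine called 2 of 9 genes, beside 8.35% of all 12008 tested (1003). The others were Plin4 (amplitude 0.76, peak ZT 14.6, adjusted p = 0.0990), Plin3 (0.24, ZT 4.68, adjusted p = 0.0995) and Mgll (0.23, ZT 12.8, adjusted p = 0.158), and Plin2, Plin5, Lipe and Cideb had amplitudes of 0.22, 0.20, 0.08 and 0.07 with adjusted p of 0.593 or more. DESeq2 called Plin4 (adjusted p = 0.0486) besides Cidec and Pnpla2. In edgeR Plin4 passed without HFD ZT 12 replicate 3 (adjusted p = 0.0381) and Plin3 without HFD ZT 8 replicate 3 (adjusted p = 0.0378). The test for any difference among the 6 HFD time points called none of the 9, beside 4.97% of all genes (597). None was called in ZT 8 minus ZT 0 (1.74% of all), ZT 16 minus ZT 4 (1.61%) or ZT 20 minus ZT 8 (2.23%) either. Unadjusted p was under 0.05 for Cidec and Pnpla2 in the first, Plin3 in the second and Pnpla2 in the third, and DESeq2 called none of the 9 in these 4 tests.

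Of 35 other pathway genes tested, 8 passed the cosine test on the HFD and 27 did not, beside 8.35% of all genes, with a median amplitude of 0.22 beside 0.17 over all genes. The test for any difference among the time points called 4 of 34 of them, Abhd6, Agpat2, Ces1d and Ddhd2, beside 4.97% of all genes. Those that passed the cosine test were 4 of 7 other lipases, namely Ces1d (carboxylesterase 1d, amplitude 0.92, peak ZT 15.7, adjusted p = 0.000118), the monoacylglycerol lipase Abhd6 (0.43, ZT 16.1), Ddhd2 (0.44, ZT 13.6) and Lipa (0.28, ZT 20.9). Fitm1, a droplet assembly protein (1.01, ZT 12.0), and Agpat2, an enzyme of phosphatidic acid synthesis (0.43, ZT 19.3), were 2 of 9 in their list. Pnpla3, the paralog of ATGL (2.05, ZT 16.0), and the acyl-CoA synthetase Acsl3 (0.48, ZT 18.7) were 2 of 9 other droplet proteins. None of 10 regulators of lipolysis passed, with G0s2, the inhibitor of ATGL, at an amplitude of 0.81, a peak at ZT 18.1 and an adjusted p of 0.0505.

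Across all 32 liver libraries the spread differed among the 10 genes. Cideb varied least, 43.9 ± 4.7 CPM, with a coefficient of variation of 10.7%, and Plin4 most among those with counts in every library, 11.5 ± 10.3 CPM or 90.1%. Plin2 ranged from 192 to 847 CPM (450 ± 160) and Plin5 from 16.5 to 96.5 CPM (44.4 ± 17.4). Pnpla2 (50.9 ± 15.7 CPM), Mgll (262 ± 61), Plin3 (36.9 ± 7.2), Lipe (10.7 ± 2.3) and Cidec (3.29 ± 1.66) lay between.

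The genes whose log2 CPM ran most like a member over those 32 libraries, which share the kit and the ZT 12 split and differ in depth (14592481 to 19815356 counted reads), are given as a description. For Pnpla2 they were Gne (Pearson r = 0.930), Gpcpd1 (0.897) and Cyp2e1 (0.891), and for Cidec Osbpl1a (0.754), Slc31a1 (0.709) and Cyp2e1 (0.706). For Plin5 they were Pex11a (0.787), Acot1 (0.779) and Ech1 (0.726). For Plin2 they were Capn2 (0.792), Rbpms (0.779) and Elovl5 (0.768). The 2 liver libraries of ZT 24, which enter no time test, held 239 and 258 CPM of Plin2, 64.1 and 56.4 CPM of Pnpla2, 13.2 and 9.89 CPM of Lipe, 253 and 343 CPM of Mgll, 18.2 and 20.0 CPM of Plin4 and 4.0 and 4.0 CPM of Cidec on AIN93G and HFD.

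Within the adipocyte-rich libraries, AIN93G at ZT 16 and ZT 20 could be compared with 3 libraries each, and the diets at ZT 24 with 2 each. Cideb fell under the count minimum, and 9 genes were tested. Plin2 stood at 782, 422 and 518 CPM at ZT 16 and at 823, 1584 and 642 CPM at ZT 20, with overlap, a log2 difference of 0.99 ± 0.35 and an adjusted p of 0.691. With 1 library left out, the Plin2 difference ran from 0.56 to 1.23. Plin1 stood at 1078, 1718 and 1424 CPM and at 1581, 1513 and 1591 CPM (0.32 ± 0.23). None of the 9 passed, beside 0.00711% of all 14071 genes (1 gene, 962 at an unadjusted p under 0.05, and 58 by DESeq2, none of them a member).

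At ZT 24 Mgll stood at 1658 and 1136 CPM on AIN93G and at 924 and 804 CPM on HFD, with no overlap (-1.03 ± 0.30, adjusted p = 0.384). Lipe stood at 1787 and 1513 CPM against 1341 and 1149 CPM (-0.73 ± 0.30, adjusted p = 0.409), and Plin1 at 1894 and 1827 CPM against 1585 and 1334 CPM (-0.67 ± 0.28, adjusted p = 0.414). Of the 9, 8 were lower on HFD, with a median of -0.51 beside 0.04 over all genes, but none passed, and 0% of all genes did (1662 at an unadjusted p under 0.05, 285 by DESeq2). DESeq2 called Mgll (-1.04, adjusted p = 0.0080). Scaled by totals, the all-gene median was -0.16 for ZT 20 minus ZT 16 and 0.36 for the diets at ZT 24. None of 38 pathway genes passed at ZT 24. AIN93G ZT 24 replicate 2 and HFD ZT 24 replicate 2 carried 10386 and 13086 CPM of skeletal muscle markers, 1 library of each diet. Brown adipocyte markers summed to 822 and 124 CPM on AIN93G and 1241 and 928 CPM on HFD, and fibroblast markers to 3773 and 4648 CPM against 9736 and 4080 CPM. The part of these cell types in the values was not tested.

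**Figure D5:**
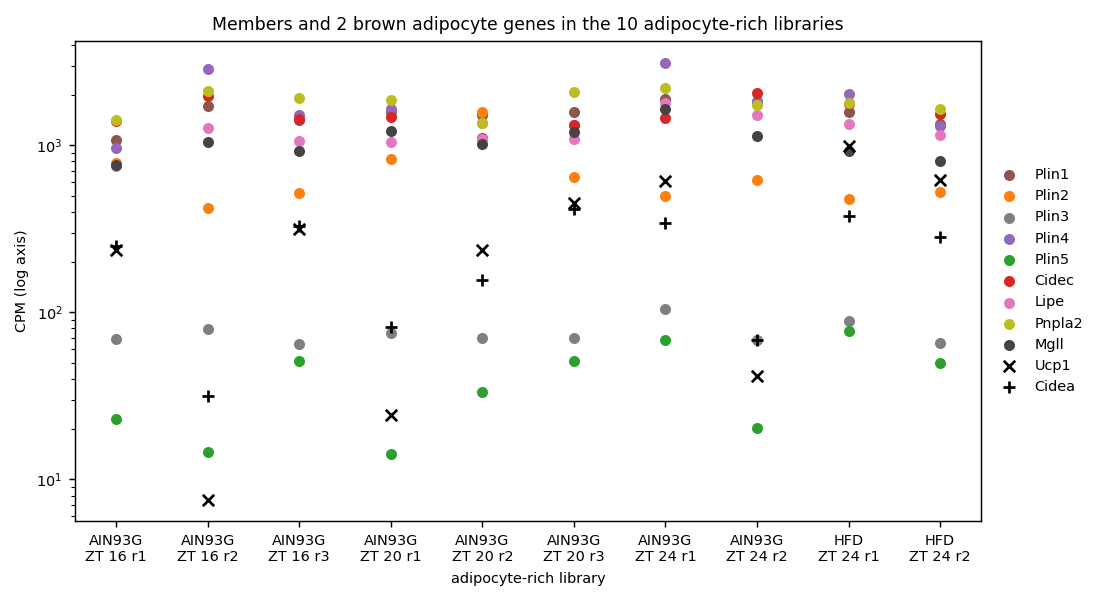
Level in CPM on a log axis of 9 of the genes and of Ucp1 and Cidea in the 10 adipocyte-rich libraries. Libraries run along the axis by labelled group, AIN93G ZT 16, ZT 20 and ZT 24 and then HFD ZT 24. Each gene has 1 point per library. The 9 genes differ by colour, and Ucp1 and Cidea are black crosses and black plus signs. Plin5, Ucp1 and Cidea spread most within groups, whereas Plin1, Cidec, Lipe and Pnpla2 stay within a narrow band.

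Plin5 had the widest relative spread of the 9 in these libraries, 40.3 ± 22.5 CPM (14.1 to 76.8). In AIN93G replicates 1, 2 and 3 it stood at 22.8, 14.6 and 51.4 CPM at ZT 16 and at 14.1, 33.5 and 51.3 CPM at ZT 20, and at ZT 24 at 68.6 and 20.2 CPM on AIN93G and 76.8 and 50.04 CPM on HFD. Ucp1, which marks brown adipocytes, stood in the same order at 236, 7.56 and 314 CPM, at 24.1, 235 and 453 CPM, at 613 and 41.3 CPM and at 987 and 624 CPM. Cidea, the CIDE gene of brown adipocytes, stood at 250, 31.7 and 331 CPM, at 82.2, 157 and 416 CPM, at 342 and 68.0 CPM and at 376 and 284 CPM. The libraries with the least Plin5 thus held little Ucp1 and Cidea, apart from AIN93G ZT 16 replicate 1, and the part of brown adipocyte content in Plin5 was not tested. Plin1, in contrast, varied by 15.4% of its mean over the 10 libraries, with the whole range from 1078 to 1894 CPM.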

How the data were processed

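The values are read counts per gene that the authors deposited as 1 table for 42 libraries. Per the labels' processing notes, fastp, STAR, HTSeq 0.6.1 and DESeq were used with the mm10 build; the strand setting is not given in the sources used here. No normalised column was used. Counts were divided by the library total to give CPM, and by the deposited gene length for CPM per kb.

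Tests used edgeR 4.0.16 (R 4.3.3) with TMM factors, robust quasi-likelihood fits with 1 mean per diet and time point, a minimum mean count of 25 per gene, and Benjamini-Hochberg adjustment over all of them at 0.05. The 24 h cosine was fitted to HFD liver libraries. Intervals are 95%; those of fold changes use the degrees of freedom of the quasi-likelihood test, and those of pooled counts cover counting error only. DESeq2 1.42.0, RLE factors, library size alone, no count minimum, other time points and each library left out were tried. The fits were also run on simulated counts with known changes as a check of the code, and that outcome is not given here.

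The 10 genes, pathway and marker lists, and the 3 genes most alike for each of Plin2, Plin5, Cidec and Pnpla2 (Pearson r of log2 CPM), were chosen with earlier results of these data known. Groups follow diet and time labels; liver and adipocyte-rich libraries follow the 10000 CPM Alb limit. Replicate numbers only name libraries. Replicates differed by more than sampling noise (chi-square per degree of freedom of at least 15.99 in 42 pairs). Each library is taken as 1 mouse, as the study describes; p-values measure the spread between these libraries.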

Additional observations from a re-analysis of the deposited data

Results flagged for a closer look

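In 20 sets of 6 libraries (the 10 genes in AIN93G and in HFD at ZT 16 and 20) tested for a value far from the rest by Dixon's criterion, 2 were marked, and chance marks about 1 in 20. Both are highest values among the 6 AIN93G libraries of ZT 16 and 20. Plin2 stood at 1584 CPM in AIN93G ZT 20 replicate 2, with the nearest library at 823 CPM, a gap of 0.655 of the whole range. Without that library the Plin2 difference between AIN93G ZT 16 and 20 and ZT 0 to 12 was -0.06 on the log2 scale, against 0.14 with it. Plin4 stood at 2844 CPM in AIN93G ZT 16 replicate 2, with the nearest at 1644 CPM, a gap of 0.636 of the range. That library held 4073 CPM of skeletal muscle markers and the lowest Ucp1 level of the 10 adipocyte-rich libraries, 7.56 CPM, and the part of either in its Plin4 level was not tested.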

How the results depend on the processing

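DESeq2 called 83 genes for diet over ZT 0 to 12, 13, 30 and 3 at ZT 0, 8 and 12, 5 for the interaction, 1788 and 276 for time on HFD and AIN93G, 428 for AIN93G ZT 8 minus ZT 0, 514, 425 and 570 for HFD ZT 8 minus 0, 16 minus 4 and 20 minus 8, 1693 for the cosine, and 58 and 285 in the adipocyte-rich comparisons of time and diet. Without a count minimum 29, 7 and 1 were called for diet over ZT 0 to 12, at ZT 8 and at ZT 12, 1 for the interaction, 59 for time on AIN93G, 112 for HFD ZT 8 minus 0 and 4 for adipocyte-rich time. Without ZT 12 there were 63 for diet, 1026 for time on HFD and 416 on AIN93G. With only the 6 libraries of a time point, diet gave 9, 1 and 0 genes at ZT 0, 4 and 8. By library size alone adipocyte-rich time gave 2. With the HFD ZT 24 library the cosine gave 350. The cause was not tested.

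Leaving out 1 library at a time gave 4 to 177 genes for diet over ZT 0 to 12, 0 to 0 at ZT 0 and ZT 4, 0 to 35 at ZT 8, 0 to 72 at ZT 12, 0 to 2 for the interaction, 298 to 1165 for time on HFD, 12 to 245 on AIN93G, 14 to 385 for AIN93G ZT 8 minus 0, and 9 to 429, 58 to 294 and 81 to 497 for HFD ZT 8 minus 0, 16 minus 4 and 20 minus 8. The cosine gave 639 to 1702, the AIN93G comparison of ZT 16 and 20 with ZT 0 to 12 9504 to 9934, HFD minus AIN93G at ZT 16 and 20 9165 to 9582, and the adipocyte-rich comparisons 0 to 1 each. The highest counts came without AIN93G ZT 12 replicate 1 (diet over ZT 0 to 12, diet at ZT 12, time on AIN93G, ZT 8 minus ZT 0 on both diets, HFD ZT 20 minus 8) or HFD ZT 12 replicate 3 (time on HFD, HFD ZT 16 minus 4, cosine, AIN93G ZT 16 and 20).

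Over the alternatives run, 20 of 216 member values of the cosine lost their call and 3 gained one, 14 of 306 gained one in AIN93G ZT 8 minus 0, 4 of 315 in time on AIN93G, 2 of 400 (with 1 lost) in AIN93G ZT 16 and 20 minus ZT 0 to 12, 1 of 400 in HFD minus AIN93G and 1 of 126 in adipocyte-rich diet. In these and the other comparisons with member values, signs turned only for members that had not passed. By library size alone Plin3 in AIN93G ZT 8 minus 0 was -0.015 and Pnpla2 in adipocyte-rich time -0.037. With 1 library left out, diet over ZT 0 to 12 ran from -0.25 to 0.43 for Plin4 and -0.0059 to 0.077 for Cideb. AIN93G ZT 8 minus 0 ran from -0.14 to 0.19 for Plin3, -0.87 to 1.27 for Plin4 and -0.020 to 0.18 for Cideb. Plin2 ran from -0.056 to 0.28 in AIN93G ZT 16 and 20 minus ZT 0 to 12 and -0.18 to 0.15 in HFD minus AIN93G. Adipocyte-rich time ran from -0.46 to 0.35 for Plin4, -0.19 to 0.97 for Plin5, -0.24 to 0.023 for Cidec and -0.048 to 0.31 for Pnpla2, and adipocyte-rich diet from -0.50 to 1.37 for Plin5. No paired analysis was possible because replicate numbers are names in accession order and groups share too few title numbers. Some leading title numbers recur between time points of 1 diet, the labels do not say what they mark, and no 2 groups share more than 1, so they were not modelled.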
